A study of Homo sapiens and Mus musculus with 7 samples.

Results

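The markers described here are 47 mouse genes used to recognise the immune cells and the sinusoidal endothelium of the liver. They were taken from a list of names chosen with earlier results of these data known. Each was looked up in the mouse array table, where a probe set counted only if the platform annotation gave it a single gene symbol. Of the 47 genes, 45 had a probe set of their own, among 18193 genes in that table. Klrb1c was left out because its probe set was shared with another gene name, and Ly6g because no probe set carried its symbol. The list was divided into 15 markers of Kupffer cells or other macrophages, 5 of neutrophils, 14 of lymphocytes, 5 of antigen presentation and 8 of endothelium.

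The study used 7 samples on Affymetrix expression arrays, and 2 of them were mouse liver. One was labelled wild type and the other Fas knockout, both male, of strain C57/BL6 and 2 months old. Fas (CD95) is a cell surface receptor that can start apoptosis when it binds Fas ligand. The labels give neither the knockout allele nor whether every cell or only some cell types lacked Fas, nor whether livers were perfused or animals pooled. Each genotype was represented by 1 array, so no difference below has a replicate check or a p-value. How precise a value is was limited by this number of arrays.

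Liver sinusoids are lined by a fenestrated endothelium that clears waste molecules from blood through scavenger receptors. Kupffer cells, the resident macrophages, sit inside the sinusoids and take up bacteria, dying cells and old erythrocytes. Lymphocytes, natural killer cells and neutrophils pass through or reside there in smaller numbers. Mice without functional Fas are known for accumulating lymphocytes in lymphoid organs, and Fas-mediated death is a known way in which activated lymphocytes are removed.

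Signals are MAS5 intensities on a linear scale, in arbitrary units. Both arrays had a 2% trimmed mean of 500.004. The median signal was 79.9 on the wild-type array and 75.2 on the knockout array. Genes under the median on both arrays were set aside as too dim, and the rest are called kept. Bright genes exceeded the 75th percentile of an array, 381 in wild type or 360.3 in knockout. Differences are log2 ratios of the signal plus a pseudocount of 20.5, knockout minus wild type, and understate the change of dim genes. The Fas probe set read 560.2 in wild type and 169 in knockout, 30.3% of the wild-type signal. Whether this probe set overlaps the altered exons is not stated in the labels. Hepatocyte markers, which check the labelled tissue, were kept in 15 of 16 cases, all 15 bright, with a median log2 ratio of 0.01.

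Most of the markers read somewhat lower in the Fas knockout liver, by amounts well under 2-fold. Of the 36 markers kept, 31 had a log2 ratio below 0, while 52.7% of the 12047 genes kept did. The median was -0.29 over the markers and -0.02 over all genes kept. The median knockout signal was 90.9% of wild type for macrophage markers, 74.9% for the kept class II markers and 81.9% for endothelial markers. Single markers of these groups ranged widely, from 58.6% for the H2-Aa probe set used and 69.9% for Cd68 to 112% for Clec4g and Cd163. Marco was at 119.8% and the C1qb probe set used at 124%. Markers of T cells and B cells were mostly too dim to measure. Counted by probe set, 42 of the 49 kept probe sets of the markers were below 0, beside 53.4% of the 21056 kept probe sets with 1 gene symbol. With arrays scaled to equal medians 27 of the 36 markers and 39.7% of genes kept were below 0, with medians of -0.20 and 0.07. With no filter 33 of the 45 markers and 52.9% of all genes were below 0, with medians of -0.19 and -0.02.

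The filter had to favour a difference in 3 markers, which passed it on 1 array alone, Cd5 and Csf3r through the wild type and Ncr1 through the knockout. Of the 33 markers above the median on both arrays 29 were below 0, and 53.1% of the 10630 such genes were. With 1 whole-liver array per genotype, fewer cells of a type, less RNA per cell and sample or array differences cannot be told apart. No value below says which of these applied.

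The size of these differences was close to the spread between probe sets of the same gene on the same arrays. Scatter between arrays or animals could not be estimated, because neither genotype had a replicate array. The percentiles of bright genes given below can hold true differences as well as noise. Probe sets of the same gene differed from each other with a pooled SD of 0.39 in the log2 ratio over 4852 genes with at least 2 kept probe sets. Over 2115 genes with at least 2 bright probe sets it was 0.19. Among the 7065 bright genes the 25th and 75th percentiles of the log2 ratio were -0.15 and 0.12, and the values that cut off the lowest and highest 5% were -0.43 and 0.35. Of the 25 bright markers, 21 were below 0, beside 50.0% of bright genes, and 14 lay at or below that 25th percentile, beside 25.0%. In the lowest 5.01% of bright genes lay 5 markers, namely Cd68, Csf1r, H2-Aa, H2-Ab1 and Lyve1. H2-Ab1 was almost on the limit, and the place of H2-Aa is that of the probe set used. At the upper end 4 bright markers, C1qb, Cd163, Clec4g and Marco, lay at or above the 75th percentile and 0 in the highest 5.01%.

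**Figure D1:**
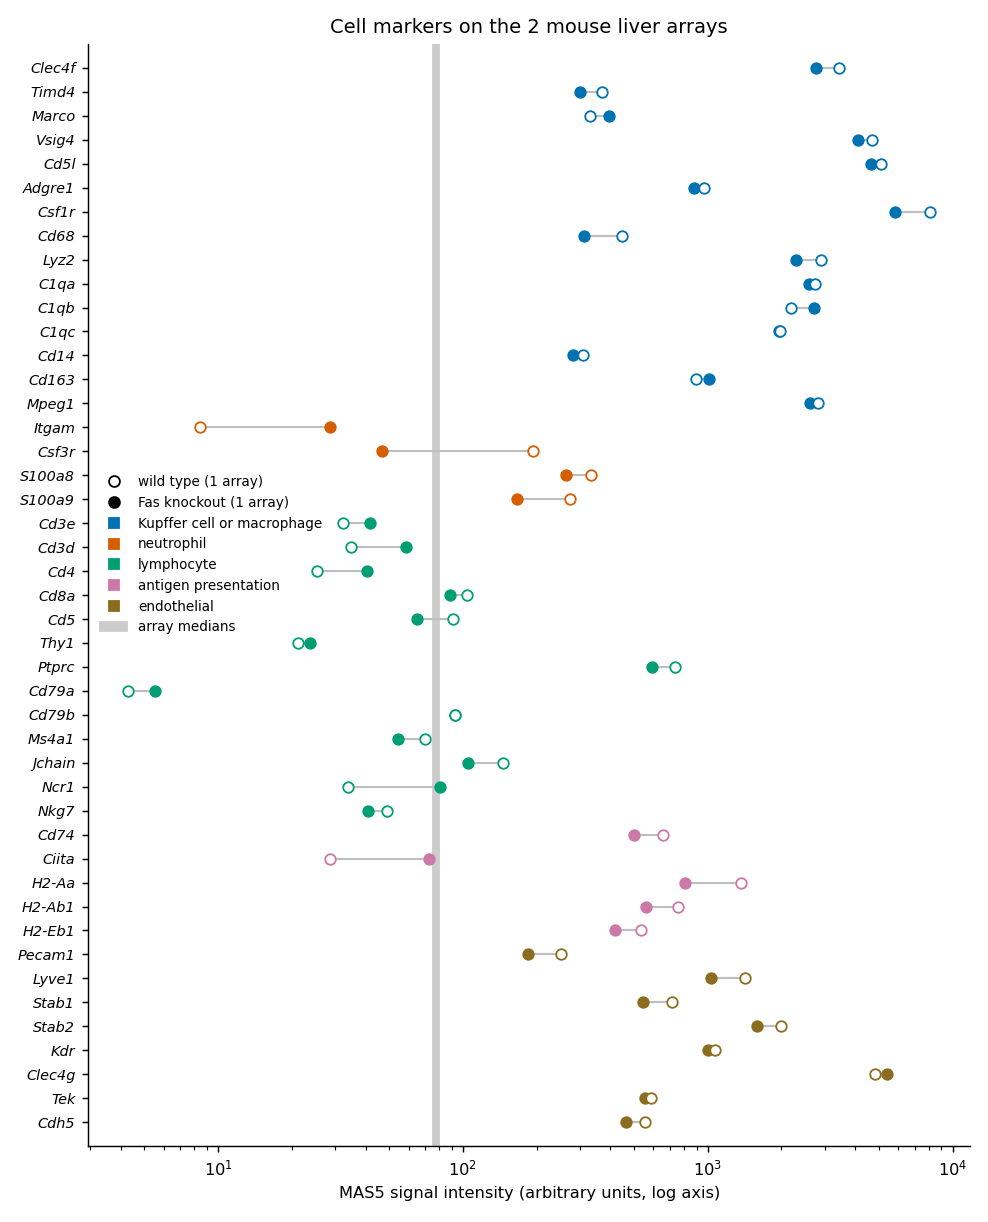
Signal of each of the 45 markers with a probe set of its own, on a log axis in arbitrary units, with 1 open circle for the wild-type array and 1 filled circle for the Fas knockout array, coloured by marker group; the grey band spans the array medians of 75.2 and 79.9. Macrophage and endothelial markers lie to the right of the band, with the filled circle mostly left of the open one, and most lymphocyte markers lie on or left of the band.

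No marker was at least 2-fold higher in the knockout, beside 1.77% of genes kept (213 genes). One marker, Csf3r, was at least 2-fold lower, beside 2.57% (310 genes). At the smaller step of 1.5-fold, 3 markers were lower, Csf3r, S100a9 and H2-Aa, beside 7.63% of genes kept, and 1 was higher, Ncr1, beside 4.89%. Counts of 0 to 3 among 36 markers are near these shares. Of the 25 bright markers 0 were at least 2-fold lower, beside 0.368% of bright genes, and 1, H2-Aa, was at least 1.5-fold lower, beside 2.18%. The H2-Aa call depends on the probe set used. Its log2 ratio was -0.39 as a mean over its kept probe sets and -0.34 on its brightest one, both short of 1.5-fold. Large ratios were more frequent among dim genes: 13.8% of genes with a mean signal below 100 were at least 2-fold lower, and 0.226% of those at 1000 or more.

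All 15 Kupffer cell and macrophage markers were kept, so the filter chose none of them, and 13 were bright. Of these 15, 12 were below 0, beside 52.7% of all genes kept. Their median log2 ratio was -0.13, with a range from -0.49 to 0.31. With arrays scaled to equal medians the median was -0.05, beside 0.07 for all genes kept. The median knockout signal was 90.9% of wild type. At least 2-fold differences were seen in 0 of the 15.

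Genes that mark the resident Kupffer cell in mice came first in the list. Clec4f, a galactose-binding C-type lectin of Kupffer cells, read 3427 in wild type and 2769.8 in knockout, a log2 ratio of -0.31. Timd4, a receptor for phosphatidylserine on dying cells, read 369 and 299.6, at -0.28. Vsig4, a complement receptor of the immunoglobulin superfamily, read 4693 and 4117, at -0.19. Each of these was lower by less than 1.5-fold. Cd5l, a secreted scavenger-receptor family protein of tissue macrophages, read 5112 and 4636, at -0.14. Marco, a scavenger receptor for bacteria, went the other way, with 329 in wild type and 394 in knockout, at 0.25, and its other kept probe set read 129 and 196, at 0.53.

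Markers shared by most tissue macrophages followed. Csf1r encodes the receptor for the growth factor on which macrophages depend, and its probe set read 8109 in wild type and 5809 in knockout, a log2 ratio of -0.48. The other Csf1r probe sets read 1719 and 1326, at -0.37, and 1034 and 772, at -0.41. All 3 probe sets of Csf1r were therefore lower in the knockout, by similar ratios. Cd68, a lysosomal glycoprotein of phagocytes, read 447 and 312, at -0.49, the lowest ratio of the macrophage group. Lyz2, the lysozyme of myeloid cells, read 2890.4 and 2288, at -0.33. Adgre1, the adhesion G protein-coupled receptor used as a general mouse macrophage marker, read 961 and 879.5, at -0.12, and Mpeg1, a pore-forming protein of phagocytes, read 2820.2 and 2617, at -0.11. Adgre1 and Mpeg1 thus lay within the middle of the bright genes, between the 25th and 75th percentiles.

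The complement protein C1q is made of chains A, B and C, encoded by neighbouring genes and produced mainly by macrophages. C1qa read 2746 in wild type and 2595 in knockout, a log2 ratio of -0.08, and C1qc read 1971 and 1961, at -0.01. C1qb read 2184 and 2713, at 0.31, the highest ratio of the group. Its other probe sets, both of the kind marked as open to cross-hybridisation, gave the opposite direction, with 1762 and 1338, at -0.39, and 2086 and 1580.02, at -0.40. The mean over all 3 C1qb probe sets was -0.16, so the direction of C1qb was not settled by these arrays. With arrays scaled to equal medians C1qa and C1qc were at 0.01 and 0.08, so their direction was not settled either.

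Cd14, the coreceptor for bacterial lipopolysaccharide, read 309 and 280.3, a log2 ratio of -0.13. Cd163, the receptor that clears haemoglobin bound to haptoglobin, read 899 in wild type and 1008 in knockout, at 0.16. The higher readings in this group were those of Marco, Cd163 and 1 of the C1qb probe sets.

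**Figure D2:**
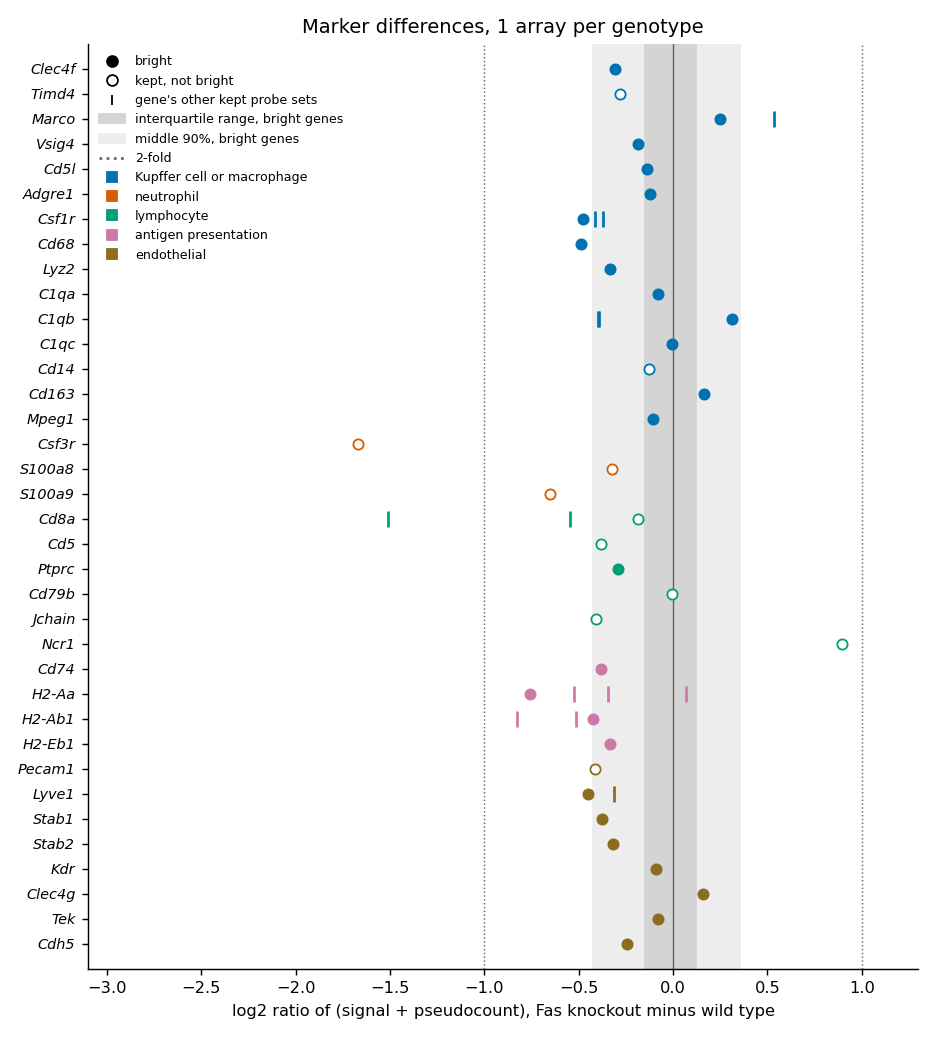
Log2 ratio of signal plus pseudocount, Fas knockout minus wild type, for the 36 markers kept, with circles for the probe set used (filled where bright), short bars for a gene's other kept probe sets, grey bands for the 25th to 75th percentiles and the middle 90% of bright genes, and dotted lines at 2-fold. The circles lie mostly left of 0, between -0.76 and 0.31 except Csf3r at -1.67 and Ncr1 at 0.90, and the bars show that C1qb probe sets fall on both sides of 0.

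Other macrophage genes also read mostly lower. Their list of 28 shares no gene with the markers, but it too was chosen with earlier results of these data known. It is therefore not an independent check. Of the 26 kept, 21 were below 0, beside 52.7% of all genes kept, with a median of -0.29. At least 2-fold lower were 0, beside 2.57% of genes kept, and at least 2-fold higher 0, beside 1.77%. Of the 23 above the median on both arrays 19 were below 0, with a median of -0.27. Trem2, a lipid-sensing receptor of macrophages, had the lowest ratio at -0.83, from dim signals of 126 and 62.0, and passed the filter through the wild type alone. Hmox1, which breaks down haem, read 516 and 317, at -0.67. Cd209f, a lectin of the DC-SIGN family, was at -0.56 and Fcgr1, the high-affinity receptor for immunoglobulin G, at -0.54. Of 8 monocyte genes 3 were kept, Plac8 at -0.36, Ms4a6c at -0.21 and Ccr2, the chemokine receptor by which monocytes leave bone marrow, at -0.19.

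Of the 5 neutrophil markers, 3 were kept and all 3 read lower in the knockout, none of them bright. Beside them, 52.7% of all genes kept were below 0. Csf3r, the receptor for granulocyte colony-stimulating factor, read 193 in wild type and 46.9 in knockout, a log2 ratio of -1.67, and the knockout reading lay under that array's median. S100a9 read 274 and 167, at -0.65, and its partner S100a8, with which it forms the calcium-binding protein calprotectin, read 335 and 264, at -0.32. Each of these was measured by 1 probe set, and genes of mean signal from 100 to 300 had an SD of 0.44 over their log2 ratios. Itgam, the integrin alpha chain of neutrophils and other myeloid cells, lay below the filter with 8.47 in wild type and 28.6 in knockout, the reverse order.

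Neutrophil granule and receptor genes outside the marker list were dim as well. Of 14 listed, 6 were kept, of which Mpo and Trem1 passed the filter through the wild type alone and Mmp9 through the knockout alone, so it fixed their direction. Of the 3 above the median on both arrays 2 were below 0. The largest ratios among the 6 were those of Mmp9, a gelatinase, at 0.58 from signals of 48.8 and 83.2, and Mpo, the myeloperoxidase of granules, at -0.56 from 102 and 62.9. Trem1 was at -0.33 and the cytokine gene Il1b at -0.27.

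Lymphocyte markers were the least well measured group. Of the 14, 6 were kept, 7 lay below the filter on both arrays and Klrb1c had no probe set of its own. The T cell receptor subunits Cd3e and Cd3d read 32.4 and 41.9, and 35.0 and 58.5, in wild type and knockout. The coreceptor Cd4 read 25.2 and 40.6, and Thy1, a surface glycoprotein of T cells, 21.1 and 23.6. In these T cell genes the knockout reading was the higher, but below the array median throughout, so a difference in T cells was not measurable with these probe sets.

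Cd8a, the coreceptor of cytotoxic T cells, was kept with 103.7 in wild type and 88.7 in knockout, a log2 ratio of -0.19. Its other kept probe sets were at -0.55 and -1.51, the last from a probe set open to cross-hybridisation that read 83.0 and 15.8. The Cd8a probe sets below the filter were at 0.36 and -0.26, so the probe sets of this gene spread widely and in both directions. Cd5, an inhibitory receptor of T cells, read 90.6 and 64.9, at -0.38.

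B cell markers were no brighter. Cd79a and Ms4a1 lay below the filter, with 4.29 and 5.50 for Cd79a, a subunit of the B cell receptor, and 70.1 and 54.4 for Ms4a1, the B cell surface protein CD20. Cd79b, the other receptor subunit, read 92.8 and 92.5, at -0.00. Jchain, which joins secreted immunoglobulin units in plasma cells, read 146 in wild type and 105 in knockout, at -0.41. Jchain was thus the only one of these B cell genes that was above the median on both arrays and differed between them by more than a few percent.

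Among natural killer cell markers, Ncr1, an activating receptor, read 33.9 in wild type and 80.8 in knockout, a log2 ratio of 0.90, the highest of all kept markers. It was kept only through the knockout array, whose median was 75.2. Nkg7, a granule membrane protein of cytotoxic cells, lay below the filter with 48.9 and 41.1, the opposite order. Ptprc is the leukocyte common antigen CD45, carried by all nucleated blood cells and not by lymphocytes alone. It was the one bright marker of this group, with 732 in wild type and 593 in knockout, at -0.29, and its other probe set was below the filter at 8.17 and 4.73.

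Further lymphocyte genes were dim and spread in both directions. Of 29 other T and natural killer cell genes 11 were kept, 5 above 0 and 6 below, with a median of -0.07. Lat, an adaptor of T cell receptor signalling, read 20.8 and 127, at 1.83, and Foxp3, the transcription factor of regulatory T cells, 14.5 and 79.3, at 1.51. Klrk1, an activating natural killer receptor, read 147 and 52.0, at -1.21, and the cytokine receptor chain Il2rb 62.4 and 129, at 0.85. Each of these 4 passed the filter on 1 array alone.

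Of 20 other B and plasma cell genes 9 were kept, but Fcrla, Pax5 and Spib passed the filter through the wild type alone and Vpreb3 through the knockout alone. Of the 5 above the median on both arrays 4 were below 0, with a median of -0.24 and 0 at least 2-fold different. Pax5 and Spib, transcription factors of B cells, were at -1.65 and -1.20, from signals of 102 and 18.5 and of 131 and 45.3. Vpreb3 was at 1.15, from 22.8 and 75.7, and Mzb1, an endoplasmic reticulum protein of plasma and marginal zone B cells, at -0.80, from 178 and 93.4. The larger ratios of Pax5, Spib and Vpreb3 are thus those whose direction the filter fixed.

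The antigen presentation markers belong to the class II pathway, by which dendritic cells, macrophages and B cells show peptides to helper T cells. Of the 5, 4 were kept, all 4 bright and all 4 lower in the knockout, with a median log2 ratio of -0.40. Beside them, 50.0% of bright genes were below 0. H2-Aa, the alpha chain of a class II molecule, read 1373 in wild type and 804 in knockout, at -0.76, the lowest of the bright markers. Its other kept probe sets, all open to cross-hybridisation, were at -0.34 from 2399 and 1886, at -0.53 from 619 and 424, and at 0.07 from 78.8 and 83.5. The brighter H2-Aa probe sets were thus lower in the knockout and the one near the array median was not.

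H2-Ab1, the matching beta chain, read 757 in wild type and 558 in knockout, a log2 ratio of -0.43, and its other probe sets gave -0.51 and -0.83. H2-Eb1, another class II beta chain, read 534 and 418, at -0.34. Cd74, the invariant chain that guides class II molecules to the endosome, read 658 and 500.2, at -0.38. These 4 genes read between 58.6% and 78.4% of wild type on the probe sets used. Ciita, the transactivator that switches class II genes on, was not measurable, with all 3 of its probe sets below the filter and ratios of 0.93, 0.78 and -0.76.

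Of 17 other class II and dendritic cell genes 7 were kept, 4 below 0, with a median of -0.08. H2-DMb2 and H2-DMa, subunits of the chaperones that load peptides onto class II molecules, were at 1.43 and 0.22, from 40.8 and 144.7 and from 197 and 233. Cd209a, a lectin of dendritic cells, was at 1.84, from 13.2 and 100.6, and Batf3, a transcription factor of cross-presenting dendritic cells, at -0.40. Cd209a and H2-DMb2 passed the filter through the knockout array alone, so they had to read higher there to be kept. Of the 5 genes above the median on both arrays 4 were below 0, with a median of -0.10. All 10 class I genes were kept, with 6 below 0 and a median of -0.04. H2-D1, a class I heavy chain, was at -0.80 and the peptide transporter subunit Tap1 at -0.33, while the immunoproteasome subunit Psmb9 was at 0.22 and B2m, the class I light chain, at 0.20. Class II and class I genes of the histocompatibility complex resemble each other within each class, so signals of single members can include their relatives.

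**Figure D3:**
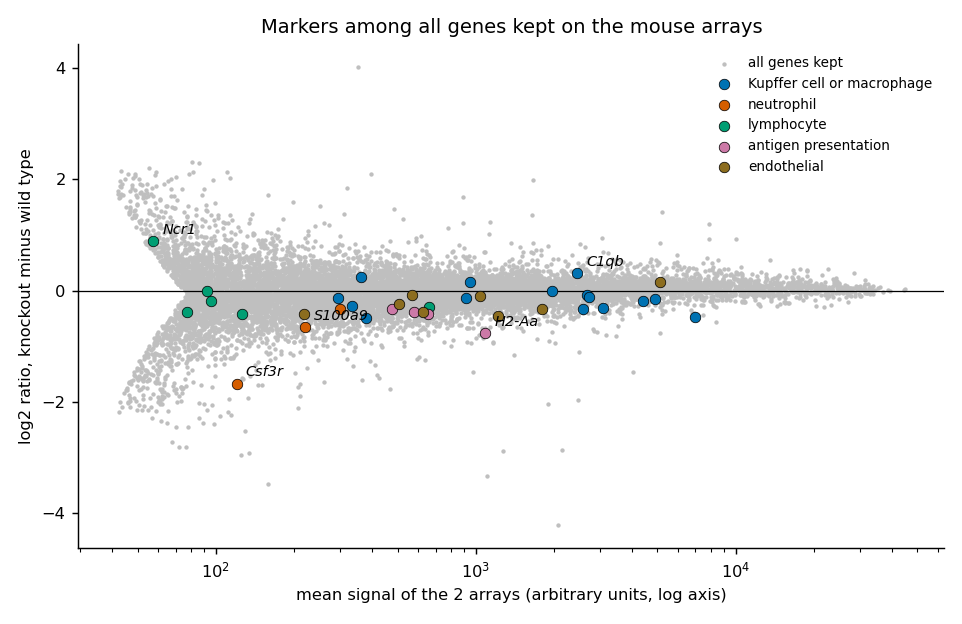
Log2 ratio, Fas knockout minus wild type, against the mean signal of both arrays on a log axis, for the 12047 genes kept (grey) and the 36 markers kept (coloured by group, 1 point per gene). The grey cloud widens towards dim genes, where Csf3r and Ncr1 lie, and the brighter macrophage, class II and endothelial markers lie mostly in its lower part.

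All 8 endothelial markers were kept and 7 were bright. Of the 8, 7 were below 0, beside 52.7% of all genes kept. Their median log2 ratio was -0.28, with a range from -0.45 to 0.16. At least 2-fold differences were seen in 0 of the 8, near the shares of 0.255% higher and 0.368% lower among bright genes.

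Receptors that mark the sinusoidal endothelium were among the lower ones. Lyve1, the hyaluronan receptor, read 1414 in wild type and 1030.1 in knockout, a log2 ratio of -0.45, and its other probe set read 613 and 489, at -0.31. Stab1 and Stab2 encode the stabilins, large scavenger receptors for waste molecules. Stab1 read 711 and 542, at -0.38, and Stab2 read 1994 and 1593, at -0.32. The knockout signals of Lyve1, Stab1 and Stab2 were 72.8% to 79.9% of wild type. Clec4g, a C-type lectin of the sinusoidal endothelium, did not follow, with 4840.0 in wild type and 5401 in knockout, at 0.16, and its other probe set was below the filter.

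Markers shared with other blood vessels differed less evenly. Pecam1, an adhesion molecule of endothelial junctions, read 252 and 184, a log2 ratio of -0.41, and Cdh5, the cadherin of those junctions, read 553 and 464, at -0.24. Kdr, the main signalling receptor for vascular endothelial growth factor, read 1067 and 1001, at -0.09. Tek, the angiopoietin receptor, read 587 and 554, at -0.08, and at 0.00 with arrays scaled to equal medians. Kdr and Tek thus lay in the middle of the bright genes. Pecam1 was not bright, and its ratio lay within the SD of 0.44 of genes of mean signal from 100 to 300.

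Of 34 other endothelial genes 33 were kept, 21 below 0 and 12 above, with a median of -0.18. This list therefore had no single direction. Sox17, a transcription factor of arterial endothelium, was at -1.13, from dim signals of 123 and 44.8. It was the only one at least 2-fold lower, but it passed the filter through the wild type alone and so had to read lower to be kept. Of the 32 above the median on both arrays 20 were below 0 and 0 were at least 2-fold lower. Its relative Sox18 was at 0.49, thrombomodulin (Thbd), which restrains clotting, at 0.54, and P-selectin (Selp), which catches leukocytes, at -0.47. Of these kept genes 63.6% were below 0, beside 52.7% of all genes kept.

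**Figure D4:**
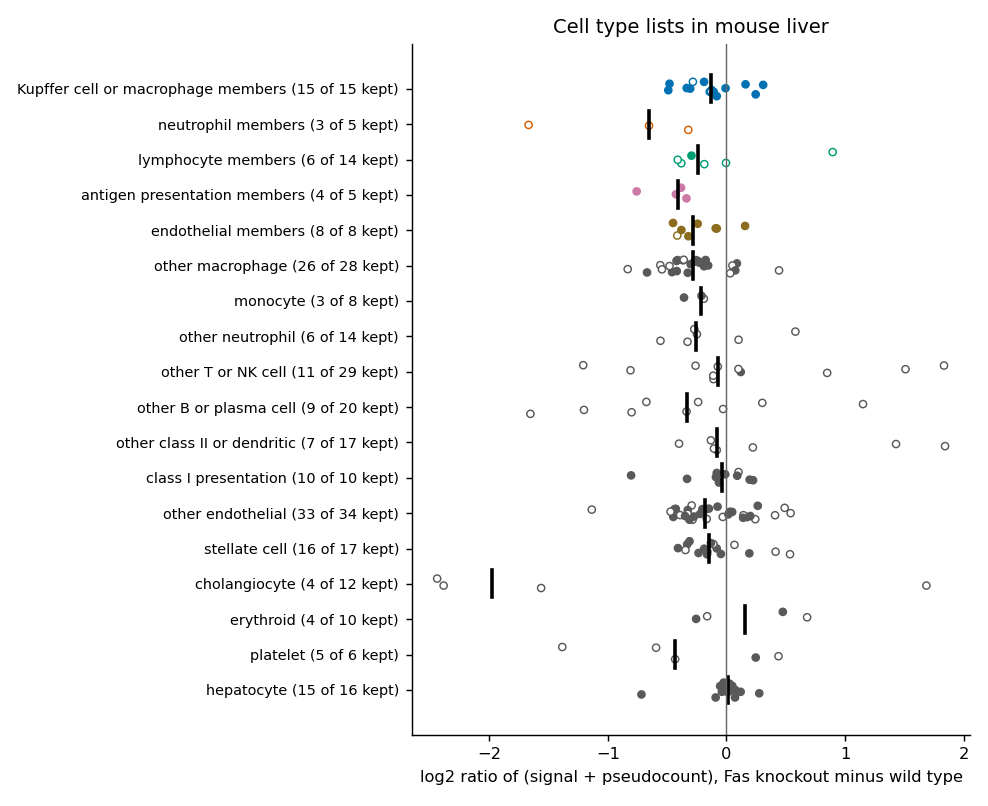
Log2 ratio, Fas knockout minus wild type, for kept genes of the 5 marker groups (coloured) and of 13 other cell type lists (grey), with filled circles for bright genes, open circles for other kept genes and a black bar at each list's median; points are spread vertically for legibility. Hepatocyte genes cluster at 0 with a median of 0.01, and the macrophage, class II and endothelial marker groups have medians left of 0. The other endothelial list (median -0.18) lies on both sides of 0, and the other class II or dendritic list (median -0.08) reaches 1.84. The dim lymphocyte and cholangiocyte lists spread widely.

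Markers of other liver cells were read on the same arrays, and their part in the differences above was not tested. Stellate cell genes, from the vitamin A-storing pericytes, were kept in 16 of 17 cases. Of these, 12 were below 0, beside 52.7% of all genes kept, with a median of -0.15. Their summed signal was 35502 in wild type and 31703 in knockout. The most different were Des at 0.54, Ngfr at 0.42, Rgs5 at -0.41 and Pdgfra at -0.35, of which Des passed the filter through the knockout alone. Stellate genes thus read mostly lower by count, as macrophage and endothelial markers did. Summed signals were 37266 and 32680 for macrophage markers and 11418 and 10769 for endothelial markers. Such sums are carried by the brightest genes and need not represent a list. Clec4g, higher in the knockout, gave 4840 and 5401 of the endothelial sums.

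Hepatocyte genes had summed signals of 421999 in wild type and 430117 in knockout, with 10 of 15 above 0. The most different were Ass1, a urea cycle enzyme, at -0.72 from 863 and 517, Tat at 0.28, Apob at 0.12 and Ahsg at -0.09. The highest wild-type signal of this list, 44420, was also the maximum of that array. Whether ratios of such high signals can show a difference was not tested. Erythroid genes were kept in 4 of 10 cases, 2 on each side of 0, with summed signals of 2136 and 2571. Slc4a1 was at 0.68, Alas2 at 0.48, Car1 at -0.26 and Klf1 at -0.16. Platelet genes were kept in 5 of 6 cases, 3 of them below 0, with summed signals of 1211 and 1154. Treml1 was at -1.38, Itga2b at -0.59, Ppbp at 0.44 and Gp1bb at -0.43. Slc4a1 passed the filter through the knockout alone and Treml1 through the wild type alone, and neither of these blood cell lists had a single direction.

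Cholangiocyte genes, of the bile duct lining, were kept in 4 of 12 cases, each through 1 array alone, 3 through the wild type and 1 through the knockout. The filter thus fixed the direction of every kept gene of this list, and no direction is read from it. Over all 9 genes with a probe set of their own, summed signals were 618 in wild type and 324 in knockout. Sox9 was at -2.44, Krt23 at -2.38, Epcam at -1.56 and Krt7 at 1.69, all from signals of at most 198. No gene of these lists read exactly 0 on either array, and the duct keratin Krt19 was below the filter.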

How the data were processed

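The 2 mouse arrays, of wild-type and Fas knockout liver, were analysed, and the human arrays were not used. Per the submitters' processing notes the authors used MAS5 to make the deposited intensity values, with no version or settings named there. Of 45101 probe sets 64 controls were left out, and 34945 had 1 gene symbol, 932 several and 9160 none in the platform annotation, whose names can be old. A gene was represented by its probe set of highest mean signal, with _x_at probe sets (open to cross-hybridisation) used only where there was no other. Log2 ratios, the filter and the bright class were computed as described above, with the 25th percentile of the table as pseudocount, in Python 3.11.15 with numpy 2.4.6, pandas 2.3.3 and matplotlib 3.10.9. The calculation was tested on simulated data, where changes larger than those of most markers were planted in bright genes only. That tested the code and not how reliable the marker differences are. No significance test was possible with 1 array per group, and counts are set beside those of all genes kept.

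The markers and all gene lists were chosen with earlier results of these data known. Every marker was accounted for, and at most 4 kept genes of each other list were named, by size of the ratio. As alternatives, results were recomputed with other pseudocounts, normalizations, filters, probe set rules and size steps. Sequences of the mouse genes were not used here.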

Additional observations from a re-analysis of the deposited data

How the results depend on the processing

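The medians of the 5 marker groups stayed below 0 under every alternative run. They moved by at least 0.1 in 3 cases. The neutrophil median of -0.65 was -0.52 with the table median as pseudocount and -0.49 with no filter, and the lymphocyte median of -0.24 was -0.0034 with no filter. A filter at the 75th percentile left no neutrophil marker, so it gave no median there. The count of markers at least 2-fold higher, 0, was 1 with a pseudocount of 10.3 and 1 at 1.5-fold. The count at least 2-fold lower, 1, was 0 with the stricter filter and 3 at 1.5-fold. Over all genes the 213 higher and 310 lower were 41 and 97 with the table median as pseudocount, 690 and 865 with no filter, 18 and 26 with the stricter filter, 589 and 919 at 1.5-fold and 71 and 126 at 3-fold. Of 277 single marker values under alternatives 4 moved by more than 0.39, the spread between probe sets of a gene. That limit is larger than the size of the median marker ratio, -0.29. A change of filter cannot alter the ratio of a single marker. Probe set rules can alter it only where a gene has other probe sets. The count of 4 is therefore no measure of how stable the values are. The other sign was taken at least once by 5 markers: C1qa, C1qb, C1qc, Cd79b and Tek. No paired analysis was possible because each genotype had 1 array, and no replicate could be left out. Array number and, for lymphocyte and neutrophil markers, signal near the array median limit these values.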
